A study of Rattus norvegicus with 2 samples.

Results

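Matrix metalloproteinases (Mmp), the membrane-anchored ADAM proteases (Adam), the secreted ADAMTS proteases (Adamts) and the tissue inhibitors of metalloproteinases (Timp) were followed through all cell clusters of the neonatal rat heart. The members were every gene of the deposited gene list whose symbol starts with Mmp, Adam, Adamts or Timp followed directly by a digit. This gave 70 genes of 25399, namely 22 Mmp, 25 Adam, 19 Adamts and 4 Timp genes. The cells came from hearts of Sprague-Dawley rats of 1 to 3 days, male and female pooled, and a Percoll gradient had been used to enrich intrinsic cardiac adrenergic (ICA) cells, a type that makes norepinephrine. They were kept with saline (control) or with lipopolysaccharide (LPS, a bacterial cell wall component that activates Toll-like receptor 4) at 1 µg/mL for 2 h, then released with trypsin and EDTA. Each condition is 1 library of single-cell 3′ RNA counts, made from pooled hearts with no genetic change in either group, so a difference between control and LPS has no replicate check and includes any difference in handling.

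Metalloproteinases cut the extracellular matrix and proteins of the cell surface, and most are made as inactive precursors. The MMPs are grouped by what they are best known to cut: collagenases cut fibrillar collagen, gelatinases cut denatured and basement membrane collagen, stromelysins have broad substrates, and membrane-type MMPs act at the cell surface. ADAMs shed membrane proteins such as TNF and growth factor ligands, ADAMTS enzymes cut proteoglycans or trim procollagen, and TIMPs bind and block the active sites. In the heart these enzymes are known mainly from fibroblasts and leukocytes and from matrix remodelling after injury and in inflammation.

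The control library held 11531 cells with a median of 12479 unique molecular identifiers (UMIs, the molecules counted) per cell, and the LPS library held 12689 cells with a median of 9432. A total of 194 cell barcodes occurred in both libraries, and 76 of them were in the same cluster in both. The cells carry the 11 clusters deposited by the authors, numbered 0 to 10. Clusters 0, 1 and 7 are labelled fibroblasts, clusters 4 and 5 endothelial cells, cluster 6 macrophages, and cluster 3 ICA cells and cardiomyocytes. Cluster 1 was led by cell cycle genes such as Top2a and Cenpf. Cluster 2 has no type in the deposited labels and was led by Rgs5, Kcnj8, Higd1b and Abcc9, so it is called pericyte-like here. In cluster 3 the cardiomyocyte markers were high, while Th, Slc18a1 and Chga, defining genes of adrenergic cells, had no UMI in either library. The other 3 adrenergic markers, Dbh, Ddc and Pnmt, summed to 75.2 CPM in control and 81.9 with LPS there, more than in any other cluster. The comparisons between control and LPS used clusters 0 to 6.

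Levels are given as counts per 1000000 UMIs of the cluster (CPM). A 3′ library counts 1 end of each molecule, so no length correction was made. Whether all genes are counted with equal yield was not tested. In control cluster 0, Col1a1 was at 4412 CPM and Col1a2, a chain of the same collagen, at 79.2. Levels of different genes are therefore given as counts and not as relative amounts. RNA set free from broken cells also enters the droplets. The 12 fibroblast markers were found in clusters 2 to 6 at a median of 20.5% to 36.6% of their level in cluster 0, and the 12 macrophage markers were found in clusters 0 to 5 at a median of 0.293% to 0.848% of their level in cluster 6. A member that lies within the range of such markers is not read here as expressed in that cluster.

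Of the 70 members, 18 had no UMI in either library. These were Mmp1, Mmp7, Mmp8, Mmp20, Mmp21, Mmp27 and Mmp28, and Adam2, Adam3a, Adam5, Adam6, Adam7, Adam21, Adam22, Adam24, Adam28, Adam34 and Adam34l. Many of these ADAMs are known mainly from testis and sperm. A count of 0 in a whole cluster still allows up to 3 UMIs, which is 0.0331 CPM in control cluster 0 and 1.21 CPM in LPS cluster 6. A further 11 members had between 1 and 49 UMIs in all, and 41 had at least 50. Every Adamts and Timp gene had at least 1 UMI. With a minimum of 50 UMIs in a cluster over both libraries, 38 members were compared in at least 1 of clusters 0 to 6, and 15 in all of the 7.

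**Figure D1:**
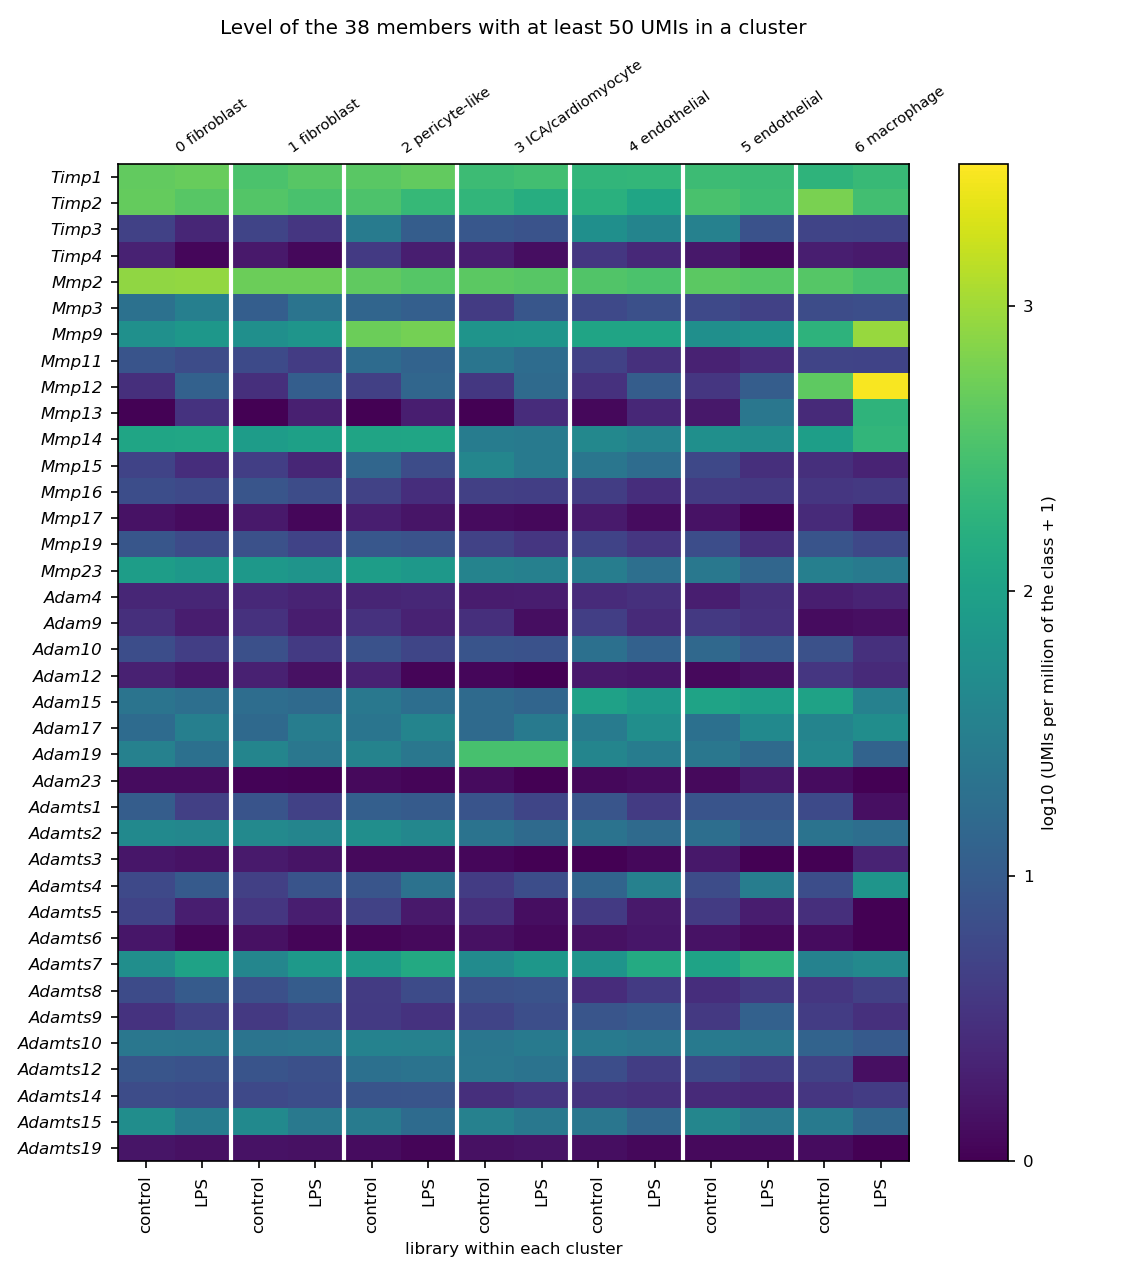
Levels of the 38 members with at least 50 UMIs in at least 1 of clusters 0 to 6. Rows are genes by family, columns are the control and LPS libraries of each cluster, and the colour is log10 of CPM plus 1. Mmp2, Timp1 and Timp2 are bright in every column, Mmp9 stands out in cluster 2 and in the macrophages of cluster 6, Adam19 in cluster 3, and Mmp12 in cluster 6.

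Mmp2, the gelatinase that fibroblasts make constitutively, was at 830 CPM in cluster 0 and 521 in cluster 1, and it was at 359 to 448 in clusters 2 to 6. Timp1 and Timp2, the broad inhibitors, were at 455 and 464 CPM in cluster 0. Mmp14, the membrane-type enzyme that activates the Mmp2 precursor together with Timp2, was at 112 CPM in cluster 0 and 110 in cluster 2. In clusters 2 to 6 and both libraries, Mmp2 lay at 35.6% to 54.0% of its cluster 0 level, and the highest fibroblast marker lay at 30.8% to 77.7%. In 4 of these 10 pairs of cluster and library Mmp2 was inside the range of the markers, and in 6 it was above. How much of the Mmp2 signal outside the fibroblasts came from free RNA was not tested.

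Other members had their highest level outside the fibroblasts. Mmp9, the second gelatinase, was at 523 CPM in control and 578 in LPS in the pericyte-like cluster 2, against 54.8 to 108 in control clusters 0, 1, 3, 4 and 5, and it was among the 10 leading genes of cluster 2. After thinning every cell to 3000 UMIs, 58.1% (95% exact binomial interval 55.2% to 60.9%) of control cells in cluster 2 and 14.7% (13.8% to 15.5%) in cluster 0 held an Mmp9 UMI, and without thinning the shares were 76.4% and 45.5%. In control clusters 0, 1, 3, 4 and 5 the 8 pericyte markers summed to 10.5% to 20.8% of their cluster 2 level. The part of free RNA in the Mmp9 UMIs of these clusters was not tested. In cluster 2 the Mmp9 UMIs were spread over many cells, and the 10% of control cells with the most Mmp9 held 40.4% of them. Neutrophils are a known source of Mmp9. The 4 neutrophil markers summed to 0.107 CPM in control cluster 2, with S100a9, Csf3r and Cxcr2 at 0, and to 0.357 CPM with LPS, with S100a8 and Cxcr2 at 0. The clusters were built from the expression data, so these contrasts between clusters are descriptions.

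Adam19, an ADAM active in heart development, was at 301 CPM in control and 307 in LPS in cluster 3. Among clusters 0 to 6, that is 7.39 times the next cluster in control and 10.6 times in LPS. It was held by 734 of 836 control cells and 727 of 929 LPS cells of cluster 3. Adam19 was not particular to cluster 3, since it also led the Adam genes in the small cluster 9. There 38 of 66 control cells and 23 of 58 LPS cells held it. Mmp15, a membrane-type MMP, was also highest in cluster 3 among clusters 0 to 6, at 38.8 and 25.7 CPM. Timp3, the inhibitor that binds the matrix and also blocks several ADAM and ADAMTS enzymes, was highest in the endothelial cells of cluster 4, at 55.0 and 36.9 CPM. Adam15, known from endothelium, was at 99.8 CPM in control cluster 4, 107 in cluster 5 and 103 in the macrophages, and at 15.3 to 24.3 in clusters 0 to 3. Over the mean of both libraries Adamts7 was the leading Adamts gene in each of clusters 0 to 9, with 51.9 CPM in control cluster 0 and 107 in control cluster 5.

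The small clusters 7 to 10 entered none of the counts below. Mmp2 led the Mmp genes in all of them, at 781 CPM in control and 763 in LPS in cluster 7, 267 and 242 in cluster 8, 1340 and 1531 in cluster 9, and 591 and 565 in cluster 10. The 12 fibroblast markers summed to 40.7% and 36.3% of their cluster 0 level in cluster 8. In cluster 9 they summed to 147% and 134%, and in cluster 10 to 55.8% and 53.8%. The Mmp2 levels of clusters 8 to 10 are not read apart from fibroblast RNA, whose part was not tested. Timp1 led the inhibitors in each of clusters 7 to 10 over the mean of both libraries. It was at 463 and 571 CPM in cluster 8, whose leading genes include Msln and Upk1b. The values past 2-fold here were Adam17 in cluster 7, with 24 and 59 UMIs, and Adamts7 in cluster 9, with 31 and 40 UMIs. Adamts7 in cluster 9 fell short of 2-fold under some alternatives. Its log2 ratio was 0.89 with a filter on mitochondrial share and gene number, 0.91 with the mean of cells and 0.62 in thinned cells.

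The comparison of LPS with control asked which members moved by at least 2-fold in the same cluster. Over clusters 0 to 6, 180 pairs of member and cluster were compared. Of these, 21 were at least 2-fold higher with LPS and 20 at least 2-fold lower. Of all genes compared, 1.68% to 4.81% per cluster were at least 2-fold higher, and 1.67% to 12.1% at least 2-fold lower. The higher pairs came from 9 members and the lower pairs from 12 members, no member was on both lists, and 17 of the 38 members were on neither. Some of these pairs had levels no higher than markers of other cell types, as described below. They were Mmp12 outside the macrophages and Mmp3 in cluster 3 among the higher pairs. Among the lower pairs they were Timp3 in cluster 0 and Mmp16 in cluster 2. Mmp13 in cluster 5 was left undecided. The ratios carry exact 95% intervals that cover counting error only. In the macrophages, the median log2 ratio was -0.30 over all genes compared and 0.03 over the 16 members.

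**Figure D2:**
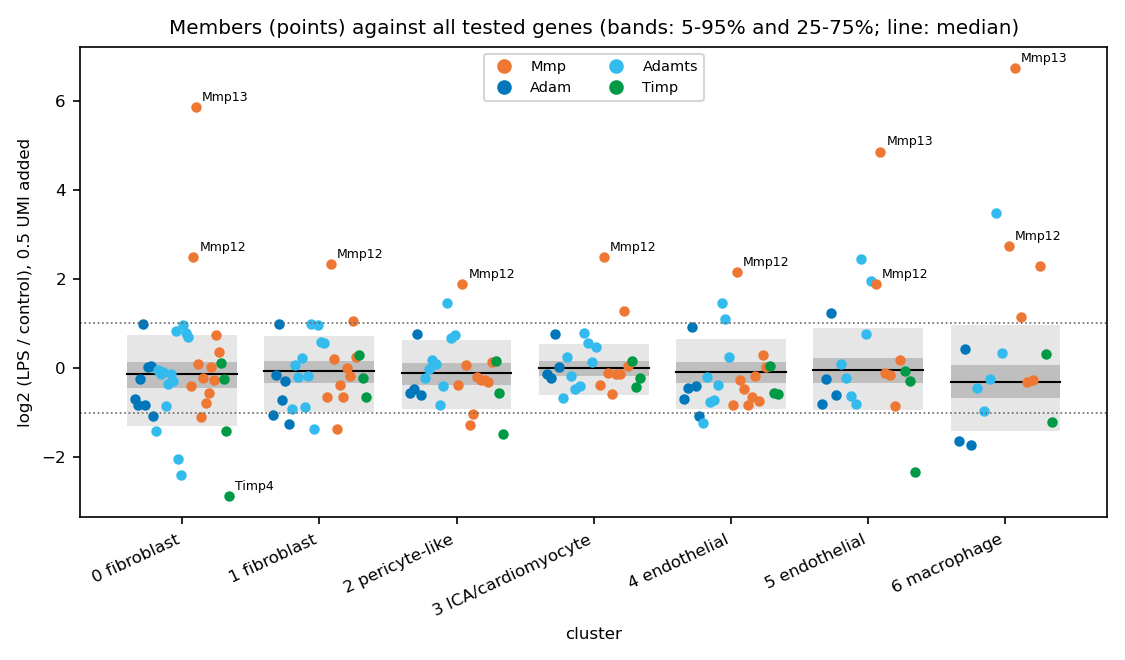
The log2 ratio of LPS to control for each member with at least 50 UMIs in a cluster (points, coloured by family), over clusters 0 to 6 on the horizontal axis. Grey bands hold the middle 90% and the middle 50% of all genes compared in that cluster, the black line is their median, and dotted lines mark 2-fold. Mmp13 and Mmp12 stand far above the bands, and Timp4 below them in cluster 0.

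In macrophages (281 control and 291 LPS cells), 5 of 16 members were at least 2-fold higher, where 4.81% of all 6385 genes were, and 3 were at least 2-fold lower, where 12.1% of all genes were. The 5 were 4 MMPs and 1 ADAMTS. Mmp12, the macrophage elastase, was at 434 CPM in control and 2894 with LPS, a ratio of 6.67 (6.29 to 7.08). Mmp9 was at 182 and 897, a ratio of 4.92 (4.48 to 5.40). Both were well detected in control macrophages already, and with LPS the macrophages passed cluster 2 as the cluster with the highest Mmp9 level. The 4 neutrophil markers summed to 11.9 CPM in control and 23.3 with LPS in this cluster, with Cxcr2 at 0 in both, while the 12 macrophage markers summed to 7623 and 5876. The part of neutrophil RNA in the Mmp9 level was not tested.

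Mmp13, a collagenase, had 5 UMIs in control macrophages and 464 with LPS, which is 1.61 and 187 CPM, a ratio of 116 (49.5 to 360). It was found in 4 of 281 control and 51 of 291 LPS macrophages, with up to 59 UMIs in a cell, and after thinning in 0.356% (0.00901% to 1.97%) and 12.4% (8.85% to 16.8%) of cells. The transcript was thus concentrated, and the 30 LPS macrophages with the most Mmp13 held 93.1% of its UMIs in the cluster. The LPS macrophages with an Mmp13 UMI had a summed level of 5028 CPM for the 12 macrophage markers, and those without had 6083. Their endothelial markers summed to 378 CPM against 232 and their fibroblast markers to 3545 against 2931, and the part of other cells' RNA in this was not tested.

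Adamts4, an aggrecan- and versican-cutting ADAMTS, had 18 and 164 UMIs in macrophages, or 5.78 and 66.0 CPM, a ratio of 11.4 (7.0 to 19.7). Mmp14 was at 89.6 and 198 CPM, a ratio of 2.21 (1.90 to 2.57), and in LPS macrophages it stood at 168% of its fibroblast level, above all 12 fibroblast markers. In clusters 0 to 5 the ratio of Mmp14 lay between 0.832 and 1.15. Mmp10, a stromelysin, had 2 UMIs in control and 19 in LPS macrophages and stayed below the 50 UMIs needed for comparison, with a ratio of 11.9 (2.87 to 105); it is named here after its values were seen.

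The 3 members lower in macrophages were an inhibitor and a pair of ADAMs. Timp2 was at 631 CPM in control, the highest level of any cluster compared, and at 272 with LPS, a ratio of 0.432 (0.395 to 0.471). Scaled by the median of ratios over all genes in place of total UMIs, its log2 ratio was -0.91, short of 2-fold. Adam15 had 320 and 82 UMIs, a ratio of 0.321 (0.249 to 0.410), and Adam19 at 40.8 and 12.1, a ratio of 0.296 (0.192 to 0.443). The summed level of the 22 Mmp genes in macrophages was 1139 CPM in control and 4531 with LPS, and that of the 4 Timp genes was 823 and 507. Mmp12 alone made up 434 and 2894 CPM of the Mmp sums. Mmp2 with LPS and Timp1 in control lay inside the range of the fibroblast markers here. The sums are counts and not relative amounts of enzyme and inhibitor.

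**Figure D3:**
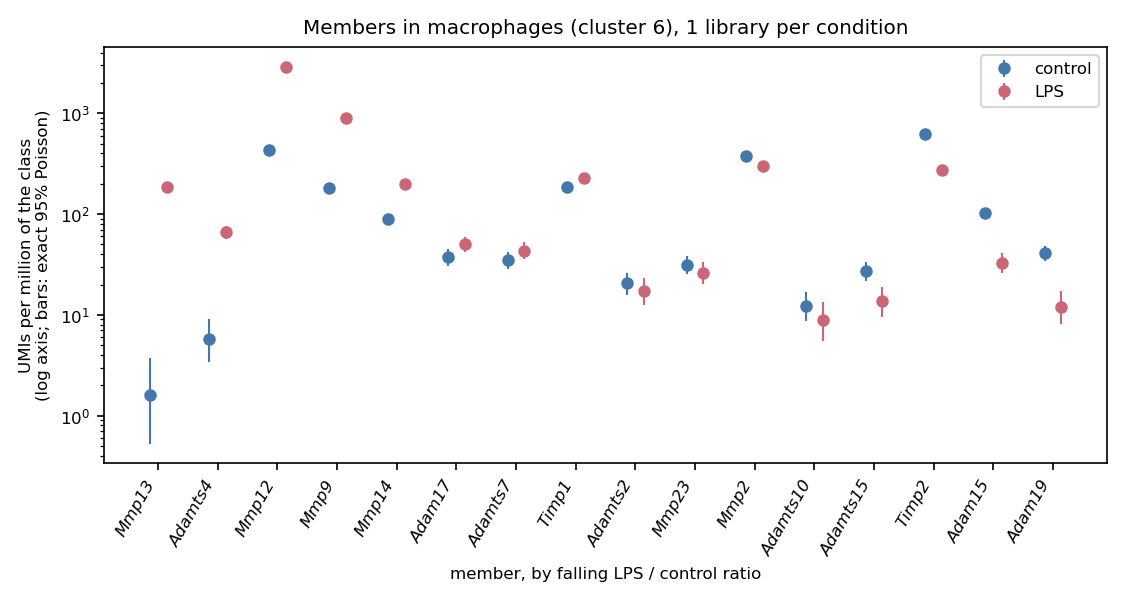
Levels of the 16 members compared in macrophages, in CPM on a log axis, for the control and LPS libraries, with exact 95% Poisson intervals that cover counting error only. Genes run from the highest ratio (Mmp13, 1.61 to 187) to the lowest (Adam19, 40.8 to 12.1), and the control and LPS points are far apart at both ends.

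Mmp12 was at least 2-fold higher with LPS in each of the other 6 clusters too, with ratios from 3.71 (2.51 to 5.61) in cluster 2 to 5.71 (3.44 to 9.95) in cluster 3. Its levels there were low, 1.99 to 3.63 CPM in control and 9.76 to 15.3 with LPS. In all 6 clusters and both libraries Mmp12 lay at 0.337% to 0.837% of its macrophage level, inside the range of the macrophage markers. These 6 pairs are thus not read as expression of Mmp12 outside the macrophages. Of all Mmp12 UMIs, 80.7% in control and 83.8% in LPS were in macrophages.

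Mmp13 was past 2-fold in clusters 5 and 0 besides the macrophages. In the endothelial cells of cluster 5 it had 3 UMIs in control and 108 with LPS, or 0.706 and 23.7 CPM, a ratio of 33.6 (11.2 to 166). That is 12.7% of the LPS macrophage level. The macrophage markers had a median of 0.566% there, and Mrc1 and Msr1 reached 16.5% and 12.4%. Mmp13 lay inside the range of the markers only through Mrc1, and Csf1r, the next marker after Msr1, was at 4.10%. The range therefore cannot decide whether these cells express Mmp13, and the part of free RNA was not tested. The 34 LPS cells of cluster 5 with an Mmp13 UMI, of 443, had a summed macrophage marker level of 49.2 CPM, the same to 3 digits as the 409 cells without, and their 11 endothelial markers summed to 2644 against 2489. A cell held up to 18 Mmp13 UMIs. In the fibroblasts of cluster 0 Mmp13 had 3 and 164 UMIs, or 0.0331 and 2.22 CPM, a ratio of 67.1 (22.6 to 329). It stood at 1.19% of the macrophage level there, just above the highest macrophage marker at 1.01%, and was held by 125 of 7030 cells with up to 11 UMIs in a cell. The 125 cells had 32.0 CPM of macrophage markers and the other 6905 cells had 23.2. How much of the fibroblast signal came from free RNA was not tested.

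**Figure D4:**
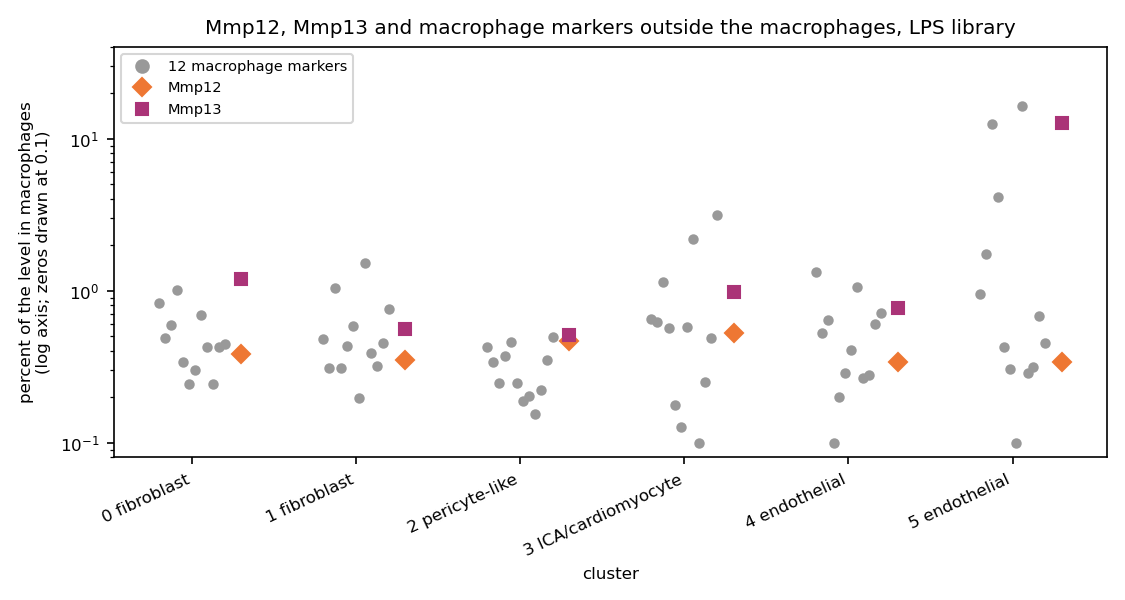
Level outside the macrophages in the LPS library, as a percent of the level in macrophages on a log axis, for Mmp12 (diamonds), Mmp13 (squares) and the 12 macrophage markers (grey points, with zeros drawn at 0.1) in clusters 0 to 5. Mmp12 lies within the range of the markers in every cluster, and so does Mmp13 in clusters 1, 3, 4 and 5, at 12.7% in cluster 5.

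Mmp12, Mmp13, Mmp3 and Mmp10 are neighbours. In the RefSeq annotation of the assembly GRCr8, 10 members follow each other on chromosome 8 with no other protein-coding gene between them, in the order Mmp13, Mmp12, Mmp1b, Mmp3, Mmp1, Mmp10, Mmp8, Mmp27, Mmp20 and Mmp7. Of these 10, only Mmp12, Mmp13 and Mmp3 had 50 UMIs in a cluster, and Mmp10 had 17 UMIs in the whole control library and 35 in the LPS library. A promoter from 250 bases before to 50 bases after the gene start was at hand for 46 of the 70 members, among them all 10 of this run. The letters TGANTCA were searched on both strands. They take in the core TGASTCA bound by AP-1, where S is G or C, and also allow A or T in the middle. They were found in 7.33% of 33469 rat promoters, in 9 of the 46 members and in 7 of the 10 genes of the run. The only match of Mmp20 reads TGAATCA, which lies outside that core. The letters TATAAA, searched on both strands, were found in 14.2% of all promoters and in 8 of the 10, and both motifs together in 1.36% of all promoters and in 7 of the 10. The letters GGGCGG of a GC box were found in 33.1% of all promoters, in 22 of the 46 members and in none (0) of the 10.

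The 120 bases before the start are shown for the 4 neighbours with at least 50 UMIs over both libraries and for Mmp7, which holds the same pair of motifs and had no UMI. Capitals mark the matches to the AP-1 and TATA letters, the sequences run 5′ to 3′ on the + strand of GRCr8, and they are credited to RefSeq. In all 5 the AP-1 letters come before the TATA letters.
Mmp13, chr8:12782709-12782828: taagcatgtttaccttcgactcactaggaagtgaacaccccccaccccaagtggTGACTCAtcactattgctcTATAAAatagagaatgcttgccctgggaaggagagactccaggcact
Mmp12, chr8:12866532-12866651: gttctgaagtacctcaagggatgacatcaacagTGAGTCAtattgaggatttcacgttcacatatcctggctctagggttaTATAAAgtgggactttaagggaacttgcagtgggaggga
Mmp3, chr8:12925161-12925280: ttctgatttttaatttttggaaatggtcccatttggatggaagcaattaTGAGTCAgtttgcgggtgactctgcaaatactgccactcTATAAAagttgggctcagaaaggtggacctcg
Mmp10, chr8:12974587-12974706: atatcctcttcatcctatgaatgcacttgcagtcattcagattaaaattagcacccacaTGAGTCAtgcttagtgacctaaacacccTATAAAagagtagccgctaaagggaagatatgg
Mmp7, chr8:13132923-13133042: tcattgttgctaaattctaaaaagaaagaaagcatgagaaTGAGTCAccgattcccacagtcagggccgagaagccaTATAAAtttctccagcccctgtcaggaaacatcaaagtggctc
The first AP-1 letter lies 66 bases before the start in Mmp13, 87 in Mmp12, 71 in Mmp3 and 61 in Mmp10. These are matches of letters in a window and not measured binding, and the run holds both genes that moved and genes with no UMI.

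In the fibroblasts of cluster 0, 2 of 38 members were at least 2-fold higher (3.43% of all 12247 genes were) and 7 were at least 2-fold lower (9.01% of all genes were). The higher members were Mmp12 and Mmp13, described above. With the median of ratios in place of total UMIs as the scale, the counts were 4 higher and 5 lower. The shares of all genes given here and for the other clusters are on total UMIs and all cells. The median log2 ratio in this cluster was -0.13 over all genes and -0.23 over the members.

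The lower members of cluster 0 were enzymes and inhibitors of low level. Timp4, an inhibitor known from the heart, had 103 UMIs in control and 11 with LPS, or 1.14 and 0.149 CPM, a ratio of 0.131 (0.0634 to 0.244). Timp3 was at 3.69 and 1.37 CPM, a ratio of 0.371 (0.294 to 0.465), but these levels were 6.71% and 3.71% of those in endothelial cluster 4, inside the range of the endothelial markers, and are not read as expression in fibroblasts. Adamts5 and Adamts1, neighbours on chromosome 11 and both cutters of hyaluronan-binding proteoglycans, were at 4.03 and 0.976 CPM (ratio 0.242, 0.185 to 0.312) and at 9.75 and 3.66 (ratio 0.376, 0.327 to 0.431). Adamts6 had 55 and 8 UMIs, a ratio of 0.178 (0.0734 to 0.377). Mmp15 and Adam9 were near the 2-fold limit, with ratios of 0.467 (0.382 to 0.570) and 0.470 (0.351 to 0.624). Mmp24, a membrane-type MMP with too few UMIs to be compared, had 37 UMIs in control and 2 with LPS, a ratio of 0.0663 (0.00774 to 0.257), and is named after its values were seen.

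In the same fibroblasts the most highly counted members, Mmp2, Timp1 and Timp2, moved little. Adamts7 and Adamts15, at lower levels, moved more but stayed short of 2-fold, and their ratios over the clusters are given below. Mmp2 was at 830 and 848 CPM, a ratio of 1.02 (1.01 to 1.03), Timp1 at 455 and 491, and Timp2 at 464 and 389. Mmp3, a stromelysin, was at 18.9 and 31.5, a ratio of 1.66 (1.56 to 1.77). Its UMIs came from few cells, 453 of 6600 in control and 562 of 7030 with LPS.

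In the cycling fibroblasts of cluster 1, 2 of 30 members were at least 2-fold higher (3.22% of all genes) and 4 at least 2-fold lower (4.99% of all genes). With the median of ratios as the scale there were 5 higher and 4 lower. Mmp3 was at 10.1 CPM in control and 20.9 with LPS, a ratio of 2.07 (1.77 to 2.44). It was found in 110 of 1295 and 122 of 1435 cells, and a cell held up to 32 UMIs in control and 43 with LPS. Its log2 ratio was 1.05, and 0.53 without the 8% of cells with the most UMIs. Adam10 was lower here, with 148 and 59 UMIs and a ratio of 0.475 (0.345 to 0.647), beside Adam9, Adamts5 and Mmp15 at ratios of 0.413, 0.379 and 0.383. In thinned cells the log2 ratio of Adamts5 was -0.31 against -1.38.

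In the pericyte-like cluster 2, 2 of 26 members were at least 2-fold higher (2.83% of all genes) and 3 at least 2-fold lower (4.17% of all genes). Adamts4 had 68 UMIs in control and 168 with LPS, a ratio of 2.75 (2.07 to 3.71). Timp3 was at 27.5 and 9.88, a ratio of 0.359 (0.277 to 0.461), and the membrane-type enzymes Mmp15 and Mmp16 had ratios of 0.410 (0.286 to 0.580) and 0.482 (0.250 to 0.888). Mmp16 fell short of 2-fold under 3 of 6 alternatives, at log2 ratios of -0.94 to -0.91, and Mmp15 in thinned cells, at -0.99. In cluster 2 Mmp16 lay at 68.9% of its cluster 0 level in control and at 38.7% with LPS. Both values are inside the range of the fibroblast markers, whose highest lay at 76.9% in control and 77.7% with LPS. They are above the marker medians of 32.0% and 31.4%. The values are not read as expression in cluster 2, and the part of free RNA was not tested. Mmp9, abundant in this cluster, had a ratio of 1.10 (1.06 to 1.15), against 4.92 (4.48 to 5.40) in macrophages. The other 5 clusters had Mmp9 ratios of 1.02 to 1.28. In these 5 the pericyte markers summed to 10.5% to 20.8% of their cluster 2 level in control and to 8.64% to 22.0% with LPS. Their Mmp9 ratios are not read apart from free RNA, whose part was not tested.

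In the ICA and cardiomyocyte cluster 3, 2 of 24 members were at least 2-fold higher (1.68% of all genes) and 0 were at least 2-fold lower (1.67% of all genes). Besides Mmp12, the higher member was Mmp3, with 22 and 42 UMIs and a ratio of 2.47 (1.44 to 4.34). Without the 10% of cells with the highest share of other cell types' markers its log2 ratio was 0.57. The levels of Mmp3 in this cluster, 3.11 and 7.66 CPM, were 16.4% and 24.3% of those in cluster 0, no higher than fibroblast markers. Adam19, highest in this cluster among clusters 0 to 6, had a ratio of 1.02 (0.953 to 1.08). Its ratios were 0.296 to 0.759 in the other 6 clusters compared.

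Adamts4 was past 2-fold in both endothelial clusters. Mmp12 was too, but it lay inside the range of the macrophage markers and is not read as expression there. In cluster 4, 3 of 26 members were higher (2.63% of all genes) and 2 were lower (4.02% of all genes). With the median of ratios as the scale there were 4 higher and 1 lower. Adamts7, which is known to cut cartilage oligomeric matrix protein, was at 64.2 and 137 CPM, a ratio of 2.14 (1.95 to 2.35), and Adamts4 at 12.2 and 33.9, a ratio of 2.77 (2.26 to 3.41). Adamts1 and Adam9 were lower, with ratios of 0.423 (0.269 to 0.651) and 0.469 (0.245 to 0.859), and the Adam9 value rests on 39 and 16 UMIs. The log2 ratio of Adam9 was -1.07, and -0.42 without the deepest cells, and that of Adamts1 was -1.23, and -0.62 in thinned cells. The median log2 ratio of the 26 members was -0.43, against -0.09 for all genes.

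In cluster 5, whose leading gene was Selp, 5 of 20 members were higher (4.19% of all genes) and 1 was lower (4.41% of all genes). The higher members were 3 without the deepest cells and 1 in thinned cells, and the lower members were 0 to 3 over the alternatives that kept the 2-fold limit. Besides Mmp13 and Mmp12, Adamts4 was at 5.41 and 29.9 CPM, a ratio of 5.52 (3.53 to 9.0), and was found in 22 of 350 control and 108 of 443 LPS cells. Adamts9, another proteoglycan-cutting enzyme, had 12 and 51 UMIs, a ratio of 3.97 (2.09 to 8.18), but its log2 ratio of 1.94 came to 0.13 in cells thinned to 3000 UMIs. Adam17, the TNF-converting enzyme, was at 18.8 and 44.6, a ratio of 2.37 (1.82 to 3.11). Timp3 was at 33.7 and 6.59, a ratio of 0.196 (0.128 to 0.292), whereas in cluster 4 its ratio was 0.670 (0.587 to 0.765). The intervals of the 2 clusters do not overlap, which speaks to counting error between these libraries and not to replicates.

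**Figure D5:**
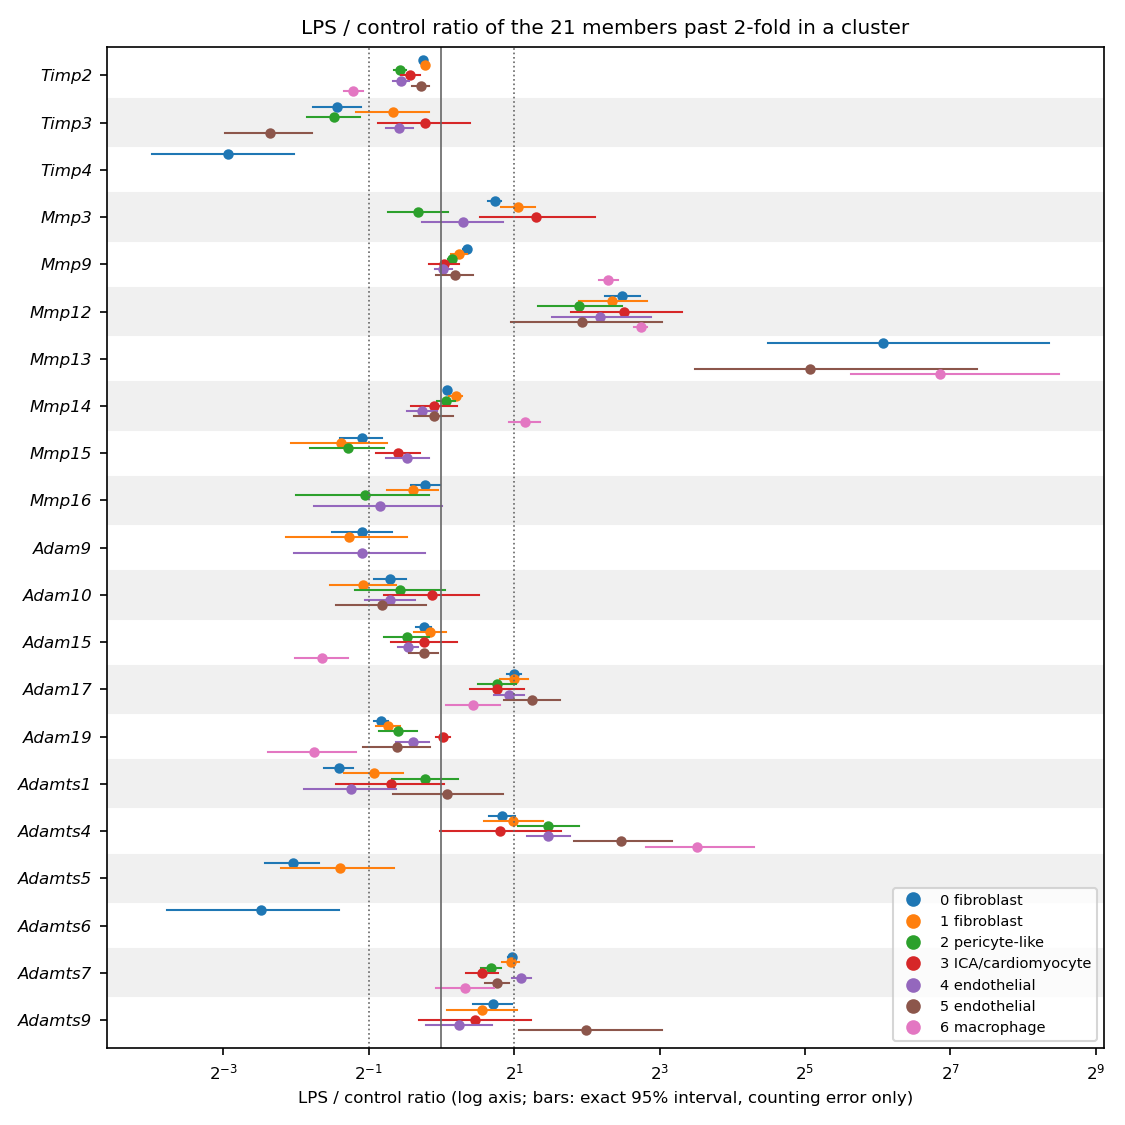
Ratio of LPS to control on a log axis for the 21 members past 2-fold in at least 1 of clusters 0 to 6, in every cluster where they had at least 50 UMIs (colours), with exact 95% intervals for counting error. The solid line marks a ratio of 1 and dotted lines mark 2-fold in each direction. The points of Mmp12 and Adamts4 lie right of 1 in all clusters, and the macrophage points of Mmp9 and Mmp14 lie apart from those of the other clusters.

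Some members moved in 1 direction across clusters while staying short of 2-fold in most. The intervals cover counting error only, and the share of all genes with an interval apart from 1 was not counted. The median log2 ratio of all genes compared was itself below 0 in all 7 clusters, from -0.304 in macrophages to -0.004 in cluster 3. Adam17 had ratios of 1.35 to 2.37, with intervals above 1 in all 7 clusters. In cluster 0 it was at 15.8 and 31.5 CPM, just under 2-fold, and in macrophages at 37.2 and 50.3, where its ratio was the lowest. Adamts7 had ratios of 1.25 to 2.14, with intervals above 1 in 6 of 7 clusters. Adamts15, a proteoglycan-cutting enzyme at 50.6 and 28.2 CPM in cluster 0, had ratios of 0.507 to 0.716 and intervals below 1 in all 7. Its neighbour on chromosome 8, Adamts8, was at 5.35 and 9.26 in cluster 0, a ratio of 1.73 (1.54 to 1.95). Timp2 had ratios of 0.432 to 0.855 and intervals below 1 in all 7 clusters, and those of Timp1 ran from 0.958 to 1.23. Timp2 lay inside the range of the fibroblast markers in clusters 2 and 3, and in cluster 4 with LPS. Adamts15 lay inside it in cluster 2. Their ratios there are not read apart from free fibroblast RNA. Adam10, the other main sheddase, had ratios of 0.475 to 0.912 in the 6 clusters where it was compared, with intervals below 1 in 4 of them. In cluster 3 its log2 ratio was -0.13, and 0.07 with the mean of cells or without mixed cells. Its levels were 5.62 and 3.44 CPM in cluster 0 and 18.4 and 11.3 in cluster 4.

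By role, the members of the hyalectanase group, ADAMTS enzymes that cut aggrecan and versican, did not move together. Adamts4 was higher in 4 clusters and Adamts9 in 1, whereas Adamts5 and Adamts1 were each lower in 2. The 3 procollagen N-propeptidases, Adamts2, Adamts3 and Adamts14, which trim fibrillar procollagens, had no value past 2-fold, with ratios of 0.573 to 1.17. The median log2 ratio of the catalytic ADAMs compared ran from -1.63 in macrophages, where 3 were compared, to -0.05 in cluster 3, and it was -0.77 in cluster 0, where the group includes Adam17 at 1.00.

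A list of 15 regulators of these enzymes was compared in the same way, and 8 to 14 of them had enough UMIs per cluster. Rhbdf2 and Rhbdf1 are inactive rhomboids that carry Adam17 to the cell surface. Rhbdf2 was at least 2-fold higher in all 7 clusters, at 2.88 and 20.9 CPM in cluster 0 (ratio 7.25, 6.35 to 8.30) and 26.0 and 82.1 in macrophages (ratio 3.16, 2.43 to 4.13). Rhbdf1 was at least 2-fold higher in clusters 0, 1 and 5. In macrophages Plaur, the urokinase receptor, was higher at a ratio of 3.57 (1.85 to 7.31), and Furin, a protease that activates Mmp14 and ADAM precursors, was lower at 0.435 (0.331 to 0.566).

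Of 23 listed substrates, 22 were in the gene list, and 16 to 21 were compared per cluster. Sdc4, Cx3cl1 and Vcam1, all shed from the cell surface by ADAMs or MMPs, were at least 2-fold higher in all 7 clusters. As a share of their cluster 0 level with LPS, Cx3cl1 and Vcam1 in macrophages lay within the range of the fibroblast markers. So did Vcam1 in cluster 3, and Sdc4, Cx3cl1 and Vcam1 in cluster 2. The higher levels there are not read apart from free fibroblast RNA. Tnf, the substrate that gave Adam17 its name, had 5 UMIs in control macrophages and 117 with LPS, a ratio of 29.3 (12.2 to 92.0). Hbegf was higher in macrophages (ratio 2.07, 1.20 to 3.64), and Notch1 and Il6r were lower there, at 0.391 (0.236 to 0.624) and 0.217 (0.0940 to 0.444). Of the matrix proteins, Col1a2 was at least 2-fold lower in the fibroblasts of clusters 0 and 1, with 79.2 and 39.4 CPM in cluster 0. Col1a1, the more highly counted chain of the same collagen, had ratios of only 0.842 in cluster 0 and 0.825 in cluster 1. The ratios of Col1a2 in clusters 2 to 6, 0.445 to 0.648, are not read apart from free fibroblast RNA. Eln was lower in clusters 2 and 5. In cluster 2 Eln was at 32.4 and 13.0 CPM, against 58.1 and 43.1 in cluster 0. These cluster 2 levels lie within the range of the fibroblast markers and are not read apart from free fibroblast RNA.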

How the data were processed

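Cells were loaded on a 10X Genomics Chromium system with the 3′ v2 kit. Per the submitters' processing notes, Cell Ranger 2.2.0 and Seurat 2.3.4 were used; the genome build is not given in the sources used here. The deposited matrices hold raw UMI counts per gene and cell, not normalized by the authors, and the deposited table gives each cell's cluster, which the authors found after joining both libraries. Here, UMIs were summed per cluster and library (Python 3.11.15, numpy 2.4.6, scipy 1.17.1, pandas 2.3.3) and divided by the cluster's UMIs. Exact Poisson, conditional and Clopper-Pearson intervals cover counting error only. Ratios were compared at 50 or more UMIs, log2 ratios had 0.5 UMI added, and 2-fold was the threshold. With 1 library per condition no test was possible, and the code was tested on simulated counts. No doublet caller was used, and doublets were treated by leaving out the deepest 8% of cells as an alternative. The few cells without a cluster, 2 and 8, were left out.

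Named with values were Timp1 to Timp4, Mmp2, Mmp14, Adam10 and Adam17, members past 2-fold in clusters 0 to 6, and the leading member of each family per cluster with at least 20 UMIs. The members, the marker lists and the pathway lists were chosen with earlier results of these data known. Some results for the listed pathway genes are not reported here.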

Additional observations from a re-analysis of the deposited data

How the results depend on the processing

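No paired analysis was possible because saline and LPS have 1 library each. Of 43 single values past 2-fold, clusters 7 and 9 included, all kept their direction under 6 alternatives, and 42 stayed past 2-fold with a filter on mitochondrial share and gene number, 41 without mixed cells, 38 with median-of-ratios scaling, 37 with the mean of cells, 37 without the deepest cells and 36 in cells thinned to 3000 UMIs. The macrophage counts stayed within 1.5 times under all. The other counts moved as follows. The shares of all genes given above are for the 2-fold limit, total UMIs and all cells. The counts under the alternatives are therefore not set beside all genes, and show only how the member counts moved. At 1.5-fold in place of 2-fold, the members higher were 8, 5, 5 and 4 in clusters 0 to 3, and those lower were 12, 10, 5, 2, 9 and 6 in clusters 0 to 5. With a minimum of 20 UMIs, 7, 5 and 3 were lower in clusters 1, 2 and 5. With median-of-ratios scaling, 4 were higher in cluster 0, 5 in cluster 1, and 1 was lower in cluster 4. In thinned cells, which hold fewer UMIs, 0 were higher in cluster 3 and 1 in cluster 5, and 0, 1, 1, 1 and 0 were lower in clusters 1 to 5. With the mean of cells, 1 was higher in cluster 1 and 3 were lower in cluster 5. Without mixed cells, 1 was higher in cluster 3 and 2 were lower in cluster 5. Without the deepest cells, 1 was higher in cluster 1 and 3 in cluster 5, and 1 was lower in cluster 4 and 2 in cluster 5. With the cell filter, 1 was higher in cluster 3. The cause of these moves was not tested, apart from the fewer UMIs of thinned cells. Members of few UMIs, such as Timp4 and Adamts6, are limited by depth outside cluster 0.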
